A study of Mus musculus with 12 samples.

Results

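Tumours of the anti-PD-1-resistant 344SQ line were compared with tumours of its parental line in mice that received only control IgG. This comparison uses 6 of the 12 arrays of the series, 3 per line, chosen by the line and antibody in the sample titles. 344SQ is a mouse lung adenocarcinoma line. Cells of either line were placed under the skin of the right flank of female 129sv/ev mice, with 5 mice in each group. The mice were given control IgG on day 4 and again on day 7, each time at 10 mg/kg, and tumours were taken on day 11. In the same way, the other 6 arrays come from tumours of both lines that received anti-PD-1, an antibody against an inhibitory receptor of T cells, at the same dose. The sources used here do not give how the resistant line was derived. Each line is a single line, so traits of anti-PD-1 resistance and other traits of this derivative cannot be told apart. The labels do not say which mice stand behind an array. A limma p-value here therefore reflects only how far arrays spread within the 4 groups of the series, which may be technical.

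An array of whole-tumour RNA holds transcripts of tumour cells, of the immune cells, fibroblasts and vessels within the tumour, and of skin and muscle around it. In such bulk samples, fewer cells of a type and less RNA per cell cannot be told apart. Interferon gamma from T cells and NK cells acts through the kinases Jak1 and Jak2 to raise antigen presentation genes and a family of large GTPases. The Cdkn2a and Cdkn2b genes encode inhibitors that hold the cell cycle in G1 and are often lost in tumours and cell lines. Checkpoint antibodies act on T cells that recognise antigen shown by MHC molecules on the tumour cell.

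Values are log2 expression levels of 1 probe set per gene, and differences are resistant minus parental, so that 1 unit is a 2-fold difference. A gene is called where limma's p, adjusted by Benjamini-Hochberg over the 15493 genes tested, lies under 0.05. Levels under 3.32, the 25th percentile of all values, are referred to as dim, and differences that reach down to that level may be understated. Array values are given for replicates 1, 2 and 3 in that order.

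The parental IgG array 1 stood apart from the other parental IgG arrays. On the second principal component of all 12 arrays, which carried 21.6% of the variance, it lay at 41.6 against 8.99 and 10.35 for replicates 2 and 3. It was at least 2-fold above the mean of those arrays in 65 genes and at least 2-fold below it in 347 genes, whereas replicates 2 and 3 differed from each other by 2-fold or more in 49 genes. Counts are therefore given with and without this array. The Gapdh control, which compares probes at the 3′ and 5′ ends of 1 transcript, differed by 0.037 ± 0.061 in the resistant arrays and by 0.21 ± 0.075 in the parental arrays (SD, n = 3), and the groups did not overlap. The actin control gave 0.47 ± 0.122 and 0.703 ± 0.131 (SD, n = 3). An exact two-sided permutation test gave p = 0.1 for each control, the smallest that 3 against 3 arrays allow. The part of RNA length in the differences between the lines was not tested.

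The lung adenocarcinoma label was set against defining markers. The simple-epithelium keratin Krt8 stood at 13.52, 13.38 and 13.29 in parental and 13.13, 13.16 and 13.17 in resistant arrays, among the brightest values measured. E-cadherin (Cdh1) lay between 11.46 and 11.85 on all 6 arrays. The lung lineage factor Nkx2-1 was low throughout, between 3.9 and 4.16, and surfactant protein C (Sftpc) lay between 4.25 and 4.73. Other surfactant genes were brighter, with Sftpb between 6.85 and 8.33 and Sftpd between 5.94 and 6.30 on parental arrays. The arrays thus carried bright epithelial keratins in both lines, and low Nkx2-1 and Sftpc.

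Between the lines, 2517 genes were called, 16.2% of those tested. Of these, 1384 (8.93%) were higher and 1133 (7.31%) lower in resistant tumours. Counts of called members in the gene lists below are to be read beside these shares over all genes. The difference reached 2-fold in 182 higher and 187 lower genes, and 8-fold in 6 higher and 14 lower genes. Across all genes tested the median difference was 0.067, with quartiles at -0.12 and 0.22, and 9443 genes (61%) were positive. The 3 resistant arrays did not overlap the 3 parental arrays in 6019 genes (38.8%), of which 3661 (23.6%) were higher and 2358 (15.2%) lower. Without parental IgG 1, 1742 genes (11.2%) were called, 897 higher (5.79%) and 845 lower (5.45%), and 1521 of them were called with it in the same direction. Among the fits that leave out 1 array, the one without resistant IgG 2 gave the fewest, 639 higher and 634 lower. In all, 1043 genes (6.73%) kept their call whichever of the 6 arrays was left out. With each array centred on its median over all probe sets, the split was 2103 higher and 888 lower.

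**Figure D1:**
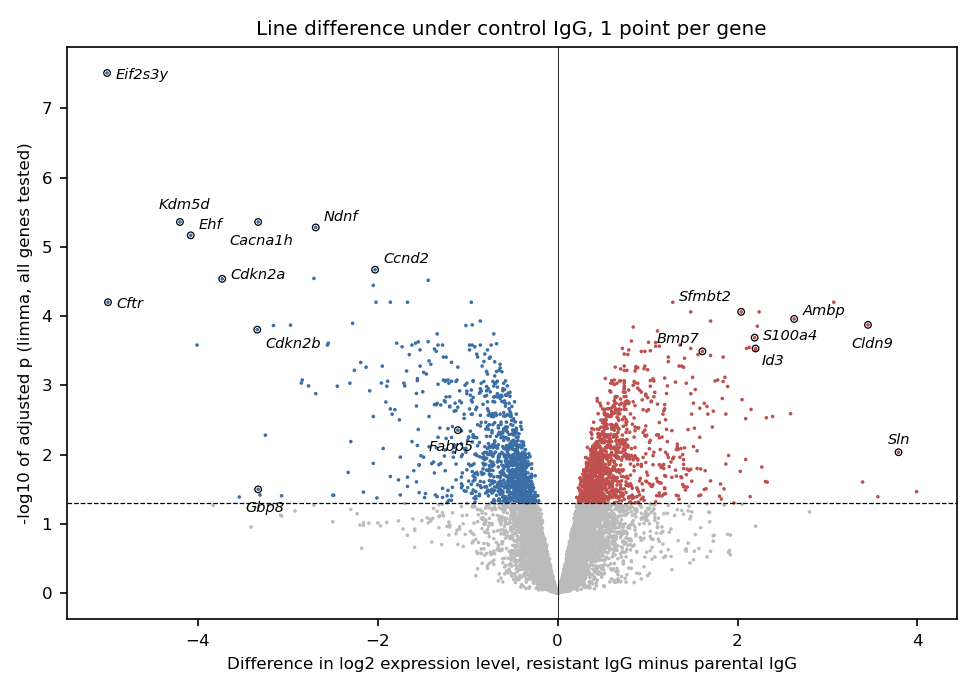
Difference in log2 expression level between resistant and parental tumours under control IgG (horizontal axis) against -log10 of limma's adjusted p (vertical axis), with 1 point for each of 15493 genes. Red points are the 1384 genes called higher and blue points the 1133 called lower. The genes with the smallest p, Eif2s3y, Cacna1h, Kdm5d and Ndnf, all lie on the lower side.

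Y-linked genes and the genes of the Cdkn2a locus were among the 25 lowest genes by the naming rule. Eif2s3y, a Y-linked translation factor gene, was at 7.90, 7.90 and 7.95 in parental arrays and at 2.92, 3.14 and 2.67 in resistant arrays, a difference of -5.01 (SE 0.15, adjusted p = 3.09e-08). Kdm5d, a Y-linked histone demethylase, was at 6.48, 6.11 and 6.71 against 2.36, 2.04 and 2.29, a difference of -4.20. Uty, the third Y-linked gene called, differed by -2.05. For Eif2s3y and Kdm5d all 3 resistant arrays were dim, while the parental arrays were not, although all host mice were female. Of 7 genes of the Y chromosome tested, 3 were called, all lower. Xist, the RNA that silences an X chromosome in female cells, was at 8.93, 9.60 and 9.70 in parental and 9.02, 8.77 and 9.16 in resistant arrays, and its difference of -0.43 was not called (adjusted p = 0.262).

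Cdkn2a, which encodes the inhibitors p16 and p19Arf, was at 6.81, 7.0 and 7.24 in parental arrays and at 3.01, 3.94 and 2.92 in resistant arrays, a difference of -3.73 (SE 0.25, adjusted p = 2.9e-05). Cdkn2b, which encodes p15 and lies next to it, was at 9.54, 8.98 and 9.26 against 6.08, 6.41 and 5.27, a difference of -3.34 (SE 0.31, adjusted p = 0.000157). Neither gene's groups overlapped, and both calls held whichever array was left out. Cdkn2b in resistant arrays stayed above the dim level, and Cdkn2a was dim on 2 of 3. On the other side of Cdkn2a, Mtap, a methionine salvage enzyme, was higher in resistant arrays, at 11.10, 10.90 and 10.63 against 9.80, 9.24 and 9.61, a difference of 1.33 (adjusted p = 0.00776). The next tested neighbours beyond Cdkn2b did not follow it down. Elavl2 was low in both lines, with means of 4.27 in parental and 4.21 in resistant arrays, and was not called (-0.06). Tusc1 (0.72), Caap1 (0.51), Plaa (0.64) and Ift74 (0.49) were called higher. Of the interferon alpha genes beyond Mtap, the 3 tested were not called. Their parental and resistant means were low, at 4.24 and 4.24 for Ifna1, 2.86 and 3.22 for Ifna4, and 3.89 and 4.08 for Ifna5. Genes this low in both lines, Elavl2 among them, cannot show whether a lower level reaches them.

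Over all 12 arrays, the 5 genes whose levels followed Cdkn2a most closely were Eif2s3y (Pearson r = 0.982), Ndnf (0.981), Wtip (0.98), Zfp740 (0.977) and Basp1 (0.977). These correlations describe arrays that fall into 2 lines, and no test was made of them. Ndnf, a secreted neuron-derived factor, was at 7.53, 7.77 and 7.60 in parental and 5.11, 5.03 and 4.69 in resistant arrays. Wtip, an adaptor of the LIM family, differed by -2.02.

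Other G1 regulators differed in both directions. Cyclin D2 (Ccnd2), a partner of the kinases that these inhibitors block, was at 10.16, 10.08 and 9.88 in parental arrays and 7.89, 8.12 and 8.01 in resistant arrays, a difference of -2.03 (SE 0.13, adjusted p = 2.14e-05). Cdkn2c, which encodes p18, was higher by 1.03 (adjusted p = 0.000316). Cdkn2d, Cdkn1c, Rb1 and cyclin E2 (Ccne2) were also called higher, by 0.71, 1.05, 0.59 and 0.98. Of 21 G1 genes tested, 5 were higher and 3 lower, with a median of 0.06 against 0.067 for all genes, and 5 of these 8 calls held whichever array was left out.

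Of 29 DNA replication genes tested, all 29 differed in the positive direction and 10 were called higher, with a median of 0.42. Mcm5, a subunit of the replicative helicase, was at 8.37, 8.85 and 8.34 in parental and 9.77, 9.66 and 9.68 in resistant arrays, a difference of 1.18 (adjusted p = 0.0159). Gins2, another helicase subunit, differed by 1.16, and Pcna, the sliding clamp, by 0.42. Chromosome 8 carries 6 of these genes (Mcm5, Cdt1, Gins2, Gins3, Gins4 and Orc6), and all 6 were called. Of the 23 on other chromosomes 4 were called, with a median of 0.28. The list had 7 calls without parental IgG 1 and 3 without parental IgG 3. Mitosis genes had a median of 0.57 and were positive in all 27 tested, of which 2 were called, Ndc80 (0.84) and Aurka (0.53). The proliferation marker Mki67 was at 9.27, 9.84 and 9.42 against 9.99, 9.93 and 10.44, groups that did not overlap, and was not called (adjusted p = 0.0976).

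Some of the largest differences lay in genes of other roles. Cacna1h, a T-type calcium channel, was at 7.27, 7.31 and 7.31 in parental and 3.91, 3.92 and 4.08 in resistant arrays, a difference of -3.33 (SE 0.17, adjusted p = 4.38e-06). Clca3a1, a secreted relative of Clca1, was at 8.51, 7.43 and 7.82 against 5.14, 5.28 and 5.66. Cfi, the complement protease factor I, was at 10.55, 10.53 and 10.66 against 9.37, 7.43 and 8.04. In these genes the resistant arrays were low without overlap. The others among the 25 lowest were Prss35 (-2.84), a protease-like secreted protein, Eva1a (-2.71), Apol7a (-2.55), Tinag (-2.45), a basement membrane protein, Kirrel3 (-2.28), a synaptic adhesion molecule, and Ly6k (-2.26), a membrane-anchored surface protein. Of the 25 lowest genes 5 have another probe set in the opposite direction.

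Among genes of other roles on the higher side, Sfmbt2, a Polycomb protein, was at 3.34, 3.44 and 3.40 in parental and 5.46, 5.38 and 5.47 in resistant arrays, a difference of 2.04 (SE 0.17, adjusted p = 8.69e-05). Tmem163, a zinc transporter, was at 5.54, 4.99 and 5.03 against 7.46, 7.51 and 7.24. Nrn1, a neurite growth protein, was at 9.24, 8.42 and 9.17 against 10.94, 10.96 and 10.45. Each of these was as well called under anti-PD-1, as were Dynap (2.59), Klhl1 (2.20), Smim31 (2.10), Tm4sf4 (2.05) and Tmprss11e (1.84). The X chromosome carries 3 of the 25 highest genes, Gspt2 (2.13), a translation termination factor, Mbnl3 (2.15), a splicing regulator, and Armcx1 (1.87). Ppbp, a platelet chemokine, was at 4.11, 3.82 and 3.54 against 6.05, 5.70 and 6.44. Prg4, the joint lubricant lubricin, was higher under control IgG (2.09) and level under anti-PD-1 (-0.07). Serpina3n, a protease inhibitor, differed by 1.90 and -0.22 in the same order, and the sodium channel Scn7a by 2.09 and -0.21. For these 3 genes the difference between both differences was not called.

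Several genes of secretory epithelium were much lower in resistant tumours. Cftr, a chloride channel, was at 8.22, 7.62 and 7.57 in parental arrays and dim on all resistant arrays, at 2.64, 2.87 and 2.90, a difference of -5.0 (SE 0.40, adjusted p = 6.31e-05). Ehf, an epithelial ETS factor, was at 8.58, 8.34 and 8.26 against 4.23, 4.26 and 4.46, a difference of -4.08 (SE 0.23, adjusted p = 6.82e-06). Muc4, a membrane mucin, was at 7.07, 6.03 and 5.75 against 3.42, 2.95 and 3.0. In each of these genes the lowest parental array lay far above the highest resistant array. For Ehf and Muc4 another probe set of the gene differed in the opposite direction. Further called ion transport genes were Slc26a4 (-2.69), an anion exchanger, Kcne3 (-2.31), a potassium channel subunit, Slc4a4 (-1.09), a bicarbonate transporter, and Clca1 (-3.07). The Clca1 call was lost without parental IgG 1 (adjusted p = 0.103). The water channel Aqp3 was called higher, by 0.37. In all, 6 of 21 mucin and ion transport genes were lower and 1 higher, with a median of -0.09, and 5 of the lower calls held whichever array was left out.

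The epithelial identity list had 5 lower and no higher calls among 24 genes, with a median of -0.22. Epcam, an adhesion molecule of epithelia, was at 10.37, 8.95 and 8.48 against 8.08, 7.58 and 7.51, a difference of -1.54. Its parental values rest in part on array 1, and the call was lost without that array (difference -0.99, adjusted p = 0.079). Marveld3, a tight-junction protein, differed by -1.55 and was called in all 6 fits that leave out 1 array. Krt18 differed by -0.38 and Krt8 by -0.24, the latter not called (adjusted p = 0.167). The list had 2 calls when parental IgG 1 was left out, and also 2 when resistant IgG 2 was.

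Single junction genes were called in either direction. Occludin (Ocln) was at 7.48, 7.25 and 6.61 in parental and 4.38, 4.33 and 3.72 in resistant arrays, a difference of -2.97 (adjusted p = 0.000135). Claudin 9 (Cldn9) ran the other way, at 4.25, 3.66 and 3.31 against 7.33, 6.91 and 7.34, a difference of 3.45 (SE 0.31, adjusted p = 0.000134). Claudin 6 (Cldn6), a neighbour of claudin 9 in the family, was higher by 1.49, and claudin 12 (Cldn12) was lower, with a difference of -0.78. These 4 genes and F11r (-0.38) made up the 5 calls among 20 junction genes, 2 higher (10%) and 3 lower (15%), with a median of -0.03, and all 5 calls held whichever array was left out.

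N-cadherin (Cdh2), often raised in mesenchymal change, was lower (-0.93, adjusted p = 0.00566). S100a4, a calcium-binding protein of motile cells, was at 9.73, 10.55 and 10.62 in parental and 12.61, 12.35 and 12.51 in resistant arrays, a difference of 2.19 (adjusted p = 0.000205). Snai1, a regulator of mesenchymal change, was higher by 0.45 (adjusted p = 0.0274). Vimentin (Vim) differed by 0.16 and Zeb1 by 0.00, and neither was called. Of 15 genes on the list of mesenchymal change, 2 were higher (13.3%) and 1 lower (6.67%), with a median of 0.25. The higher count was 1 without parental IgG 1.

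Some lung lineage genes were lower. Surfactant protein D (Sftpd) was at 6.11, 5.94 and 6.30 in parental and 4.38, 4.29 and 4.50 in resistant arrays, a difference of -1.73 (adjusted p = 0.000278). Surfactant protein B (Sftpb) was at 6.85, 8.33 and 8.09 against 6.09, 6.11 and 6.06, a difference of -1.67. The lipid transporter Abca3 (-0.85) and Ager (-0.82), a receptor of alveolar type I cells, were lower as well. Sox2, a factor of proximal airway, was dim on all parental arrays, at 2.21, 2.17 and 2.24, and stood at 3.84, 4.40 and 3.73 on resistant arrays, a difference of 1.78 (adjusted p = 0.000838). Of 27 lung and foregut genes, 7 were lower and 1 higher, with a median of -0.16, and 3 of these calls held whichever array was left out.

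Afp, the fetal albumin-like protein of liver, was at 9.76, 9.90 and 9.97 in parental and 5.93, 6.54 and 5.13 in resistant arrays, a difference of -4.01 (adjusted p = 0.000262), and another probe set of the gene differed in the opposite direction. Apob, the lipoprotein of liver and gut, differed by -1.57. Ambp, a secreted precursor made in liver, ran the other way, at 5.56, 5.49 and 5.39 against 8.18, 8.17 and 7.97, a difference of 2.63 (adjusted p = 0.00011). Haptoglobin (Hp) was called higher by 3.56, with resistant values of 8.03, 11.79 and 8.89, and its call was lost without parental IgG 1 (adjusted p = 0.116). The 21 liver genes had 2 higher (9.52%) and 2 lower calls (9.52%), near the shares over all genes of 8.93% and 7.31%, with a median of 0.36.

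**Figure D2:**
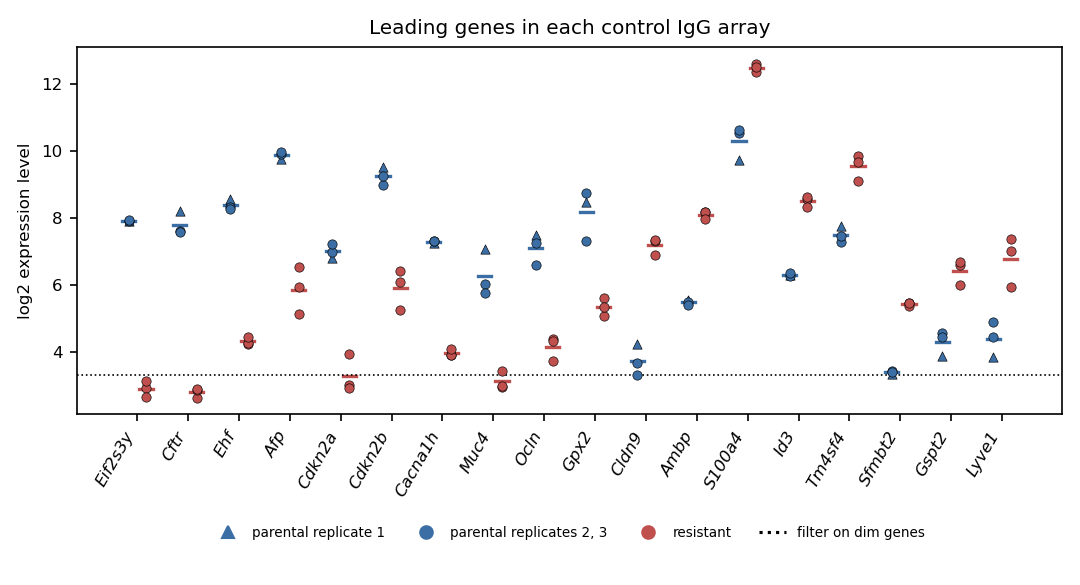
Log2 expression level (vertical axis) of 18 genes on each of the 6 control IgG arrays, parental in blue and resistant in red, with parental replicate 1 as a triangle, horizontal bars at group means and a dotted line at the dim level of 3.32. The first 10 genes were lower and the last 8 higher in resistant tumours, and no gene's groups overlap.

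BMP signalling is a pathway of secreted ligands that raises the ID genes. On the list of BMP and TGF-beta genes 21 of 30 were positive, beside 61% of all genes tested. Of 30 BMP and TGF-beta genes, 8 were higher (26.7%) and 1 lower (3.33%), with a median of 0.34. The higher count was 3 without resistant IgG 2 and 5 without parental IgG 1, parental IgG 2 or resistant IgG 1. Id3, a target of BMP signalling, was at 6.29, 6.27 and 6.37 in parental and 8.58, 8.63 and 8.33 in resistant arrays, a difference of 2.20 (SE 0.23, adjusted p = 0.000294). Id1, another such target, was higher by 0.77. Among ligands, Bmp7 was higher by 1.61 (adjusted p = 0.000323) and Bmp2 by 0.60, whereas Bmp4 was at 7.07, 7.74 and 7.90 against 6.61, 6.52 and 6.14, a difference of -1.15. The extracellular regulator Bmper was at 3.85, 4.89 and 5.32 against 6.28, 6.83 and 6.57. Calls for Bmp2 and for the pseudoreceptor Bambi (0.79) were lost without parental IgG 1, at adjusted p of 0.0644 and 0.0867. Under anti-PD-1 the list's median was 0.0, with 5 higher and 4 lower calls.

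Among other growth pathways, 5 of 17 Notch genes were higher and 1 lower. Without parental IgG 2, or without parental IgG 3, 1 was higher, and 1 call held whichever array was left out. The ligand Jag2 (0.35) and the targets Hes5 (0.38) and Hey1 (0.68) were higher, and the ligand Dll1 was lower (-0.52). Rnf43, a Wnt feedback regulator, was lower (-1.01, adjusted p = 0.00132), and Mycn, a MYC family factor, was at 7.84, 8.0 and 8.06 against 6.48, 5.93 and 5.34, a difference of -2.05 (adjusted p = 0.00282). Another Mycn probe set differed in the opposite direction. Of 24 Wnt genes 3 were higher (12.5%) and 2 lower (8.33%), with a median of 0.08. Of 24 genes of MYC and ribosome biogenesis 1 was higher (4.17%) and 2 lower (8.33%), with a median of 0.04. Over all genes the shares were 8.93% and 7.31%. Myc itself differed by -0.16 and was not called (adjusted p = 0.402).

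Some interferon-inducible genes were called lower in resistant tumours, and the spread within each line was wide. Gbp3, a guanylate-binding protein, was at 7.89, 10.23 and 10.31 in parental and 5.65, 4.89 and 7.95 in resistant arrays, a difference of -3.31 (SE 0.95, adjusted p = 0.0383). Gbp6 was at 8.13, 10.62 and 10.72 against 5.92, 4.73 and 8.20, a difference of -3.54 (adjusted p = 0.041). Irgm1, an immunity-related GTPase, was at 8.29, 10.22 and 10.32 against 7.30, 7.12 and 8.38, a difference of -2.01 (adjusted p = 0.0423). In all 3 genes parental IgG 1 lay about as low as resistant IgG 3, so that the groups overlapped, while parental IgG 2 and 3 lay above every resistant array. Gbp8 was the fourth GTPase called, at 5.54, 7.71 and 8.10 against 3.65, 2.87 and 4.84, without overlap.

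Of 12 GTPase genes tested, out of 20 listed, 4 were called lower, none higher, and 11 were negative, with a median of -2.82. When parental IgG 1 was left out, 11 were called and the median was -3.58. Without resistant IgG 3, 10 were called, and without any one of the other 4 arrays none was. The remaining member, Irgc1, which is not known as an interferon target, differed by 0.09. Gbp2, Gbp2b, Gbp7, Iigp1, Igtp, Irgm2 and Ifi47 had differences between -3.83 and -1.77 and were not called with all arrays. Members of this family are close in sequence, so their probe sets may share signal.

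Because these genes differed together, the promoters of 4 of them are shown, each 300 bases from 250 before to 50 after the transcription start in RefSeq's GRCm38.p6 annotation. Capitals mark matches to GAAA followed by any 2 bases and a further GAAA, the core bound by interferon regulatory factors, and to TTCNNNGAA, the core of interferon gamma-activated sequences, searched on both strands, where N is any base. Gbp3 lies at chr3:142559794-142560093 on the plus strand, Gbp7 at chr3:142530086-142530385 on the plus strand, Igtp at chr11:58199306-58199605 on the plus strand and Irgm1 at chr11:48871371-48871670 on the minus strand.
Gbp3: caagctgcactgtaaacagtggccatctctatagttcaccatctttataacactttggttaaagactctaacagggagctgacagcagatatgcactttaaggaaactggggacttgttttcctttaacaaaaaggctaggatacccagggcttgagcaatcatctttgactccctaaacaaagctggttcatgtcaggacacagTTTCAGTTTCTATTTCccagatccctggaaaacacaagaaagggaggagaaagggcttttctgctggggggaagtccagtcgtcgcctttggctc
Gbp7: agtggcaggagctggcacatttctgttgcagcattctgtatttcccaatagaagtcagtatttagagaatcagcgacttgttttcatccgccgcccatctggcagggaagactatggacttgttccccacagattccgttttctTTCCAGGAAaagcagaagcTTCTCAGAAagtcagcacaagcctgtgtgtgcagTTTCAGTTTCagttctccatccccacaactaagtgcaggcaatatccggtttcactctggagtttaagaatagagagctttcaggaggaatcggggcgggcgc
Igtp: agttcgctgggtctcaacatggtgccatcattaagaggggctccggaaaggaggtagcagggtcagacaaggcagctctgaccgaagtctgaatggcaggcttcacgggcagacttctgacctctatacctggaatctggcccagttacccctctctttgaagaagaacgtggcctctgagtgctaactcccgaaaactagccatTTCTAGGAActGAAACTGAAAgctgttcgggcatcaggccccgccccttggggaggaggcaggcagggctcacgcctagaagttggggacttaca
Irgm1: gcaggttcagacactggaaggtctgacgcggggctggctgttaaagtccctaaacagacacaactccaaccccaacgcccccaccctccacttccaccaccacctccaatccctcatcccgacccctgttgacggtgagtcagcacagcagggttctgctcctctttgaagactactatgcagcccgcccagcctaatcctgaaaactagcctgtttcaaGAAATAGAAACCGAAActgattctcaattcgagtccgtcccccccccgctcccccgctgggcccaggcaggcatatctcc
Gbp3 and Irgm1 each hold 2 overlapping matches to the GAAA pair, and Gbp7 and Igtp hold matches to both motifs. A second Gbp3 promoter in the table, at chr3:142560106-142560405 on the plus strand, holds no match to either.

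Among the GTPase genes, 8 had a promoter in the table, and 7 of these (87.5%) held the GAAA pair and 3 (37.5%) TTCNNNGAA. A gene was counted where any of its promoters held the motif. Of 12373 genes tested that had a promoter, 439 (3.55%) held the GAAA pair and 1028 (8.31%) TTCNNNGAA. Counted by promoter, 1131 (3.44%) of all 32851 in the table held the GAAA pair and 2726 (8.3%) TTCNNNGAA. Of 20 type I interferon-stimulated genes with a promoter, 10 (50%) held the GAAA pair, and of 14 adventitial fibroblast genes 1 (7.14%) did. These matches describe letters in this window and are not measured binding.

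**Figure D3:**
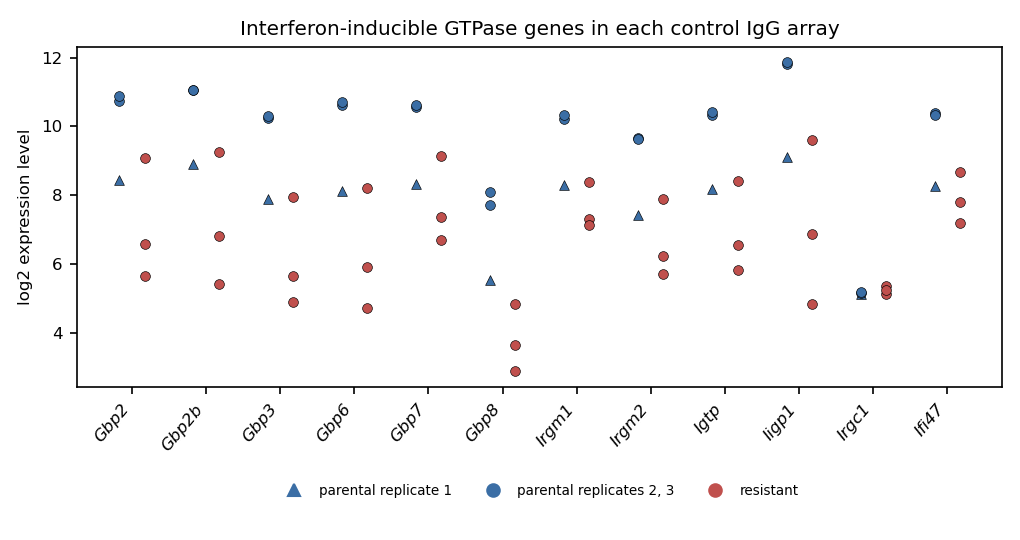
Log2 expression level (vertical axis) of the 12 interferon-inducible GTPase genes tested on each of the 6 control IgG arrays, parental in blue and resistant in red, with parental replicate 1 as a triangle. Parental replicates 2 and 3 lie close together at the top for 11 genes, parental replicate 1 lies among or near the resistant arrays, and Irgc1 is level.

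Genes upstream of these targets had smaller differences. Interferon gamma itself (Ifng) was at 3.10, 4.97 and 4.65 in parental and 2.86, 3.08 and 3.17 in resistant arrays, dim on all of the latter, and was not called (adjusted p = 0.104). Jak1, a kinase of the receptor, was higher by 0.68 (adjusted p = 0.00321) and was called in all 6 fits that leave out 1 array. Jak2 was lower (-0.28), a call that ended without parental IgG 1 (adjusted p = 0.125). Pdcd1lg2, which encodes the PD-1 ligand PD-L2, was lower (-0.66, adjusted p = 0.0123). Cd274, which encodes PD-L1, was at 5.71, 7.04 and 7.34 against 5.30, 4.95 and 5.52, a difference of -1.44 that was not called (adjusted p = 0.0968) and was called without parental IgG 1 (-1.93, adjusted p = 0.0471). Of 26 genes of the interferon gamma chain and its targets, 1 was higher and 2 lower, and 1 and 11 were so without parental IgG 1. The median went from -0.84 to -1.23.

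Antigen presentation genes showed the same split between arrays. In the class I list 1 of 18 genes was called lower, Tapbpl (-1.18, adjusted p = 0.0457), a chaperone of class I molecules, and the median was -0.76. Tap1, the peptide transporter, was at 6.65, 8.93 and 9.0 in parental and 6.02, 5.06 and 7.49 in resistant arrays, and B2m, the class I light chain, at 11.35, 12.58 and 12.59 against 11.31, 10.85 and 11.68. Neither was called with all arrays, at adjusted p of 0.0973 and 0.0929. When parental IgG 1 was left out both were, and 12 of 18 class I genes were called lower with a median of -1.27. Leaving out parental IgG 2 or 3, or resistant IgG 1 or 2, left no call in this list. In the class II list, Cd74, the invariant chain, was the 1 gene of 11 called, at 9.94, 10.84 and 11.15 against 9.15, 8.44 and 9.34 (-1.67, adjusted p = 0.0212). In this list 4 were called without parental IgG 1, and none without parental IgG 2, parental IgG 3 or resistant IgG 2. Groups did not overlap in 8 of 11 class II genes, all lower, beside 15.2% of all genes tested.

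Type I interferon-stimulated genes had 1 call among 30, Ifit2, at 6.32, 7.47 and 7.42 against 5.62, 5.57 and 5.30 (-1.57, adjusted p = 0.0248). Leaving out parental IgG 1 gave 15 lower calls, and the median went from -0.62 to -0.94. Leaving out any other 1 of the 6 arrays ended the Ifit2 call. The mean level of this list was 5.70, 7.02 and 7.09 in parental arrays and 5.81, 5.97 and 6.08 in resistant arrays, so that parental IgG 1 lay below all 3 resistant arrays. The chemokine Cxcl9, an interferon gamma target that attracts T cells, was at 8.22, 11.34 and 11.24 against 6.90, 3.97 and 9.69 and was not called (adjusted p = 0.111).

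Of 23 cytotoxic lymphocyte genes 8 were called lower, with a median of -0.70. The lower count was 3 without parental IgG 2, parental IgG 3 or resistant IgG 2, 4 without resistant IgG 1 and 5 without resistant IgG 3. Gzmb, a granule protease, was at 5.91, 7.88 and 8.32 in parental and 5.18, 4.77 and 5.69 in resistant arrays, a difference of -2.16 (adjusted p = 0.0348). Gzmg was at 5.49, 6.44 and 5.53 against 2.49, 2.59 and 2.63, a difference of -3.25 (adjusted p = 0.00525), and Gzmf differed by -2.33. Gzmg was dim on all 3 resistant arrays and Gzmf on 2 of 3, and the neighbouring granzyme genes are close in sequence and may share signal. Gzmc and Gzmd were called lower as well. Serpinb9, an inhibitor of granzyme B, was at 9.06, 10.10 and 10.09 against 8.71, 8.33 and 8.46 and was called in all 6 fits that leave out 1 array. The list had 8 calls without parental IgG 1 and between 3 and 5 without each other array, and 3 held throughout.

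T cell markers had a smaller median difference than the cytotoxic genes. Cd3e was at 5.38, 5.64 and 5.70 in parental and 5.53, 5.61 and 5.48 in resistant arrays, a difference of -0.03, and Cd8a differed by -0.29. Perforin (Prf1) differed by -0.56, and none of these 3 was called. Cd3g (-1.11, adjusted p = 0.198) and Cd3d (-0.97, adjusted p = 0.128), of the same receptor complex as Cd3e, were not called either. On the T cell list 15 genes were negative and 7 positive. Of 22 T cell genes 1 was called lower, Bcl11b (-1.18), a factor of T cells and of some epithelia, with a list median of -0.21. The receptor Pdcd1 was near the dim level, between 3.0 and 3.62, and was not called. Mean levels of the list were 4.65, 5.11 and 5.18 against 4.70, 4.64 and 4.72, so parental IgG 1 again lay within the resistant range.

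Mcpt1 and Mcpt2, proteases of mast cells, were lower. Mcpt1 was at 10.25, 10.21 and 9.54 in parental and 7.92, 8.77 and 7.89 in resistant arrays, a difference of -1.81 (adjusted p = 0.00225), and Mcpt2 differed by -1.35. These were the 2 calls among 12 genes, both held whichever array was left out, and without parental IgG 1 there were 7. Itgax, a marker of dendritic cells, was lower (-1.07, adjusted p = 0.0264). It was the 1 call among 16 dendritic cell genes, of which 8 were positive and 8 negative, with a median of 0.06. The list had 0 calls without parental IgG 2, parental IgG 3, resistant IgG 2 or resistant IgG 3.

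General macrophage genes had few differences, with 0 of 19 called by limma and a median of -0.06, although 3 had an unadjusted p under 0.05. Without parental IgG 1 the count was also 0. Adgre1, the F4/80 antigen, was at 6.52, 6.70 and 7.11 against 6.86, 6.84 and 7.56. Of markers of macrophages that reside around vessels, 8 of 18 were called higher and none lower, with a median of 1.28. Cd163, a haemoglobin scavenger receptor, was at 6.18, 6.0 and 6.15 in parental and 7.70, 8.09 and 8.03 in resistant arrays, a difference of 1.83 (adjusted p = 0.00155). Lyve1, a hyaluronan receptor also found on lymphatic vessels, was at 3.85, 4.89 and 4.44 against 5.93, 7.03 and 7.39, a difference of 2.39 (adjusted p = 0.00282). The groups did not overlap in 11 genes of the list, all higher, beside 23.6% of all genes tested. The mannose receptor Mrc1 (0.65), Pf4 (1.38), F13a1 (1.80) and Cbr2 (1.85) lost their call without parental IgG 1, which left 4 of 8 with a median of 1.06. Under anti-PD-1 the list's median difference was 0.15 with 2 calls.

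Some fibroblast genes were higher in resistant tumours. Of 21 genes of adventitial and quiescent fibroblasts 9 were higher and 1 lower, with a median of 1.16. Mgp, an inhibitor of calcification, was at 8.15, 7.10 and 7.76 in parental and 10.42, 9.99 and 9.55 in resistant arrays, a difference of 2.32 (adjusted p = 0.00294). Mfap5, a protein of elastic microfibrils, was at 6.40, 6.79 and 7.01 against 8.35, 8.38 and 8.63, a difference of 1.72. Sfrp2, a secreted Wnt modulator, was at 3.95, 4.92 and 6.87 against 7.51, 8.72 and 9.67, a difference of 3.39 that was called with all arrays (adjusted p = 0.0249) and not without parental IgG 1 (2.74, adjusted p = 0.0816). Igfbp5 was the lower gene (-1.62). Leaving out parental IgG 1 left 4 higher and 1 lower calls, with a median of 1.0. The list's median was -0.05 under anti-PD-1, with 2 higher and 1 lower calls.

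Activated fibroblast genes had 7 higher and 1 lower calls among 23, with a median of 0.50. The higher count was 4 without parental IgG 3, resistant IgG 2 or resistant IgG 3. Cthrc1, a secreted protein of matrix-producing fibroblasts, was at 6.69, 6.97 and 6.88 in parental and 8.54, 8.41 and 8.79 in resistant arrays, a difference of 1.73 (adjusted p = 0.00236). The matrix crosslinker Lox (1.19), its relative Loxl1 (1.19) and the protease Ctsk (1.40) were called with all arrays and not without parental IgG 1. Tenascin C (Tnc) was lower (-0.82). Among 17 collagen genes 1 was called (5.88%, beside 8.93% of all genes higher), Col6a2 (0.42), and Col1a1 was not (0.61, adjusted p = 0.297).

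Of 28 endothelial genes, 5 were higher (17.9%) and 1 lower (3.57%), with a median of 0.55. Emcn, a sialomucin of capillaries and veins, was at 5.49, 5.98 and 6.11 in parental and 7.28, 7.15 and 7.91 in resistant arrays, a difference of 1.59 (adjusted p = 0.0161). Aplnr (1.55), Sox18 (1.10), Tie1 (0.93) and Sox17 (0.37) were also higher, and all 5 higher calls were lost without parental IgG 1, at adjusted p from 0.0543 to 0.119. Groups did not overlap in 19 higher genes of the list, beside 23.6% of all genes tested. Vcam1, an adhesion molecule induced by inflammation, was lower, at 10.93, 11.32 and 11.48 against 10.12, 9.55 and 10.12 (-1.31, adjusted p = 0.00413), and was called in all 6 fits that leave out 1 array. Pecam1 was not called (0.56, adjusted p = 0.261). The list's median under anti-PD-1 was -0.27, with no higher and 4 lower calls.

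Fat and muscle transcripts varied strongly within a line. Adipoq, the adipocyte hormone adiponectin, was at 3.11, 4.88 and 4.70 in parental and 6.53, 10.66 and 7.47 in resistant arrays, so that resistant IgG 2 stood highest. Its difference of 3.99 was called with all arrays (adjusted p = 0.0343) and not without parental IgG 1 (adjusted p = 0.102). Of 19 adipocyte genes 3 were higher, the others being Pparg (0.76) and Sncg (1.55). The mean level of the list was 5.26, 5.88 and 5.82 against 6.11, 7.71 and 6.29. Their part in differences of genes that fat also expresses was not tested.

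Mature skeletal muscle genes had 0 calls by limma among 26, and 0 with an unadjusted p under 0.05. Ckm, the muscle creatine kinase, was at 6.91, 11.57 and 10.96 in parental and 10.59, 10.51 and 11.12 in resistant arrays, so parental IgG 1 alone was low. The list's median went from 0.38 to -0.60 without that array. Genes of regenerating or denervated muscle had 4 higher calls among 16. Sln, an inhibitor of the calcium pump, was at 5.86, 5.27 and 7.91 against 9.93, 9.94 and 10.54, a difference of 3.79 (adjusted p = 0.00925), and was -1.98 and not called under anti-PD-1.

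**Figure D4:**
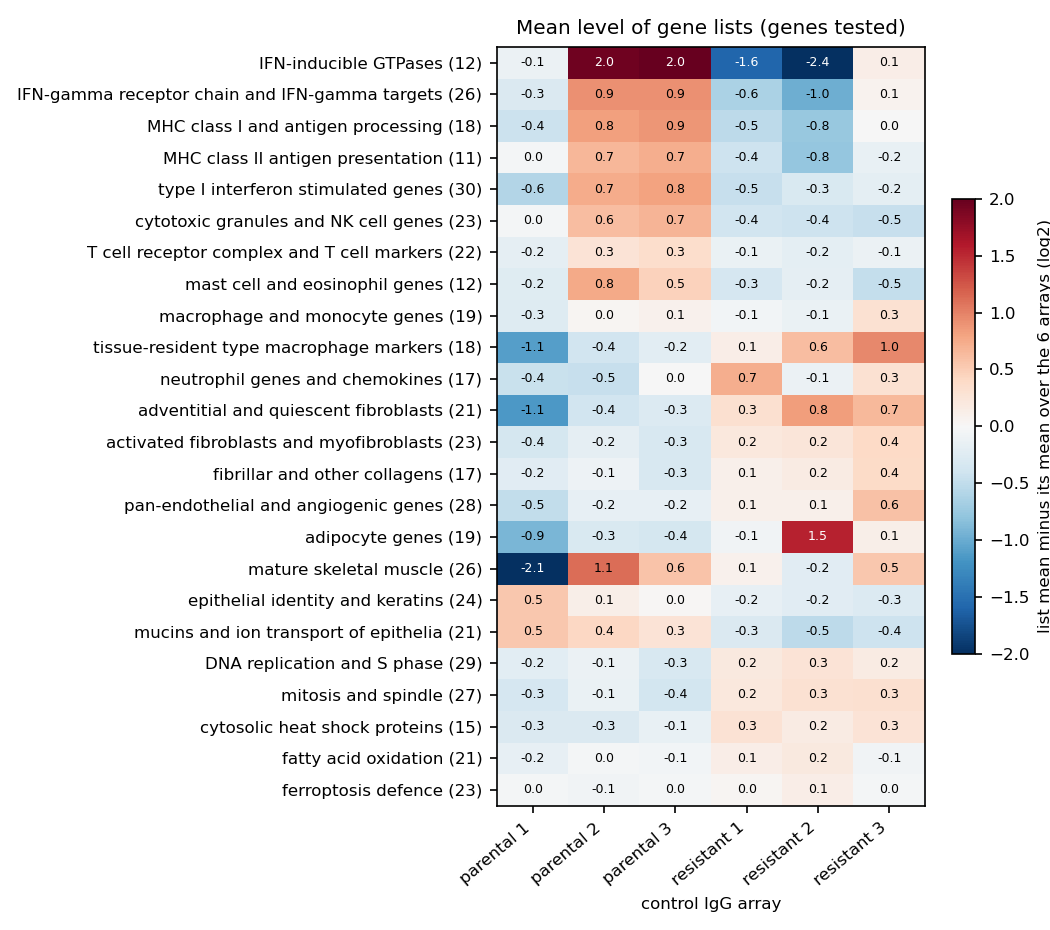
Mean log2 level of gene lists on each of the 6 control IgG arrays, shown as the difference from the list's mean over the 6 arrays (colour, red above and blue below), with the number of genes tested in brackets. The interferon lists are highest in parental replicates 2 and 3, mature muscle is low in parental replicate 1, and the fibroblast and resident macrophage lists are above their mean in all resistant arrays.

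Fatty acid binding proteins and ferroptosis genes are named in the title of the series. Fabp5, an epidermal fatty acid binding protein, was at 10.79, 10.98 and 10.89 in parental and 9.53, 9.59 and 10.22 in resistant arrays, a difference of -1.11 (SE 0.20, adjusted p = 0.00444), and was called in all 6 fits that leave out 1 array. It was the 1 call among 7 tested members. Fabp4, the adipocyte form, was at 5.33, 8.95 and 8.53 against 9.17, 11.66 and 10.37, groups without overlap, and was not called (2.80, adjusted p = 0.0673). Its highest value lay on resistant IgG 2, as for Adipoq.

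Ferroptosis is a form of death by lipid peroxidation. The glutathione peroxidase Gpx4, which reduces lipid peroxides, was at 11.29, 11.56 and 11.51 in parental and 11.65, 11.77 and 11.58 in resistant arrays and was not called (0.21, adjusted p = 0.119). The cystine transporter subunit Slc7a11 differed by -0.06 and was not called, and its partner Slc3a2 was higher by 0.38. Of 23 defence genes 4 were higher (17.4%) and 3 lower (13%). Among them were Gch1 (0.76), the first enzyme of tetrahydrobiopterin synthesis, and Mboat2 (-0.95), a phospholipid remodelling enzyme. Of 23 driver genes 4 were higher (17.4%) and 5 lower (21.7%), with differences from -0.95 to 0.75. Positive differences were seen in 10 drivers and negative in 13. The drivers named below are all lower ones, and the 4 higher ones are given only as a count. Of these calls 2 higher and 2 lower held whichever array was left out. The lower count was 2 without parental IgG 3 and 3 without parental IgG 1, resistant IgG 1 or resistant IgG 2. Acsl4 (-0.50), Lpcat3 (-0.72) and Elovl5 (-0.30), which supply or insert polyunsaturated fatty acids into phospholipids, were lower, as was the transferrin receptor Tfrc (-0.63), for which 2 other probe sets differed in the opposite direction. Acsl4 was at 9.79, 9.84 and 9.93 against 9.41, 9.20 and 9.46 (adjusted p = 0.0166). The Elovl5 call was lost without parental IgG 1 (adjusted p = 0.052). Medians were 0.06 for defence and -0.04 for drivers, beside 0.067 for all genes.

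Of 30 glutathione and NRF2 genes 3 were higher (10%) and 4 lower (13.3%), beside 8.93% and 7.31% of all genes, with a median of 0.04. Gpx2, a glutathione peroxidase of epithelia, was at 8.49, 8.74 and 7.33 in parental and 5.60, 5.08 and 5.33 in resistant arrays, a difference of -2.85 (adjusted p = 0.000927). Gclc (-0.69), which starts glutathione synthesis, and Me1 (-0.85), which supplies NADPH, were lower, and Gsr (0.60), which recycles glutathione, was higher. Of 21 fatty acid oxidation genes 6 were higher and none lower, with a median of 0.25. Cpt2, the inner carnitine transferase, was at 7.58, 7.53 and 7.55 against 8.0, 8.07 and 7.93, a difference of 0.45 (adjusted p = 0.00257), and was the one gene of the list called without parental IgG 1. The count was also 1 without resistant IgG 1 or resistant IgG 2.

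Lipid storage and iron genes included single large differences. Plin2, a coat protein of lipid droplets, was at 10.54, 10.34 and 10.17 in parental and 11.01, 10.94 and 10.90 in resistant arrays, a difference of 0.60 (adjusted p = 0.00992). G0s2, an inhibitor of lipolysis in fat cells, differed by 1.96, with its highest value on resistant IgG 2, and lost its call without parental IgG 1 (adjusted p = 0.128). Of 23 genes of fatty acid uptake, droplets and lipolysis 4 were higher and 1 lower, and the higher count was 1 without parental IgG 1, resistant IgG 1 or resistant IgG 2 and 2 without parental IgG 2 or parental IgG 3. Steap4, a metalloreductase, was at 4.97, 6.40 and 6.47 against 7.74, 8.86 and 8.06, a difference of 2.27 (adjusted p = 0.0151). Its relatives Steap1 (-0.50) and Steap2 (-0.55), and the transferrin receptor homologue Tfr2 (-0.66), were lower. Of 20 iron genes 1 was higher (5%) and 4 lower (20%), with a median of 0.04. The lower count was 1 without parental IgG 3 or without resistant IgG 2, and the higher call was lost without resistant IgG 2.

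Among p53 targets 2 of 15 were higher (13.3%) and 2 lower (13.3%), beside 8.93% and 7.31% of all genes, with a median of 0.11. Pmaip1, the death-promoting protein Noxa, was at 7.08, 7.07 and 7.43 in parental and 8.40, 8.74 and 8.72 in resistant arrays, a difference of 1.43 (adjusted p = 0.000932). Trp53inp1 (-0.62) and Btg2 (-0.75) were lower, and Sesn1 (0.62) was higher. Neutrophil genes had 0 calls by limma among 17, with or without parental IgG 1, and a median of 0.44, and 2 had an unadjusted p under 0.05. Mmp9, a matrix protease of neutrophils, was at 6.81, 6.61 and 6.15 against 7.58, 8.10 and 6.88 and was not called (adjusted p = 0.0901).

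Carbonic anhydrases of the hypoxia list were exchanged. Car12 was lower (-1.35, adjusted p = 0.000323) and Car9 higher (1.33, adjusted p = 0.00708), and both calls held whichever array was left out. Another Car12 probe set differed in the opposite direction. Hexokinase 2 (Hk2), at 9.73, 9.59 and 9.73 in parental and 8.80, 8.43 and 9.12 in resistant arrays, was lower by a difference of -0.90. Of 28 genes of hypoxia and glycolysis 2 were higher (7.14%) and 5 lower (17.9%), with a median of -0.06. The lower count was 1 without resistant IgG 1 and 2 without resistant IgG 2, and 1 lower call held whichever array was left out.

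Called genes were spread unevenly over the chromosomes. On chromosome 8, 230 of 816 genes tested (28.2%) were higher and 13 (1.59%) lower, with a median of 0.252, and 85.5% were positive. On chromosome 4, which carries Cdkn2a, 155 of 939 (16.5%) were higher and 27 (2.88%) lower. Chromosomes 6 and 15 ran the other way, with 18.1% and 18.3% lower and 2.99% and 3.88% higher. Without parental IgG 1 the chromosome 8 median was 0.259, and under anti-PD-1 it was 0.273. Neighbouring genes are not independent, and no test was made over chromosomes.

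**Figure D5:**
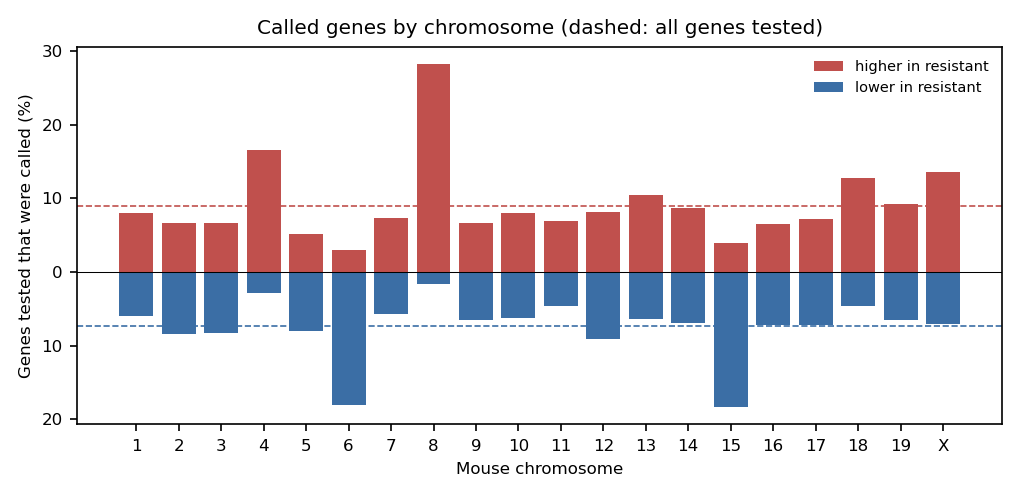
Share of genes tested that were called higher (red, upward) or lower (blue, downward, in percent) in resistant tumours under control IgG, for each mouse chromosome but Y, with dashed lines at the shares over all genes of 8.93% and 7.31%. Chromosomes 8 and 4 stand out on the higher side and chromosomes 6 and 15 on the lower side.

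The same lines under anti-PD-1 share no array with this comparison. There 3343 genes (21.6%) were higher and 1843 (11.9%) lower. Of the 2517 genes called under control IgG, 1704 (67.7%) were called in the same direction under anti-PD-1, which is 32.9% of the calls made there. Of the 25 lowest genes by the naming rule, 22 were called lower there as well, and of the 25 highest 18 were called higher. Called in opposite directions were 5 genes, Ptgs2, Pde2a, Amer2, Exph5 and Gm4924. The difference between both differences was called in 0 genes (0%) by limma, and 2713 genes had an unadjusted p under 0.05.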

How the data were processed

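Total RNA of whole tumours was labelled with biotin and hybridized to an Affymetrix mouse genome array, as the labels' protocols state. Values are on a log2 scale, read from their range of 1.62 to 13.88, in 1 table that the authors deposited with a value per probe set and array. The sources used here do not give how background was corrected or arrays were normalized, and no depth applies to arrays, whose number limits the precision. No columns were left unused (0), no pair of arrays was identical (0 pairs), and correlations between arrays ran from 0.959 to 0.997.

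Of 45101 probe sets, 64 were controls, 34945 had 1 gene and were used, 932 had several and 9160 none. Symbols were matched by gene number for 34741 (GRCm38.p6). Each of 18193 genes was represented by its brightest probe set over 12 arrays, 9010 of which had several, and 15493 with at least 3 arrays above the 25th percentile were tested. limma 3.58.1 (R 4.3.3) was fitted with 1 mean per group over 12 arrays, 8 residual and 2.98 prior degrees of freedom, two-sided p-values adjusted by Benjamini-Hochberg. The median SE was 0.117. The code was tested on simulated data. Figures used matplotlib 3.10.9.

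The 65 gene lists (1275 entries tested of 1445), the comparison and the tests were chosen with earlier results of these data known. Named were the 25 highest and 25 lowest called genes that did not overlap and were called without parental IgG 1, up to 6 called members of a list per direction by smallest p, 3 where none was called, fixed genes, and 5 genes most like Cdkn2a. A further 45 were chosen after their values were seen. These include Mtap, the GTPase genes and presentation genes not called, Ckm, Mki67 and Cxcl9. Members of a list beyond the 6, and the neighbours of Cdkn2a, are given to complete a count. Alternatives were each IgG array left out, other filters, normalizations, probe set rules, weights and a replicate block. Promoters are RefSeq's.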

Additional observations from a re-analysis of the deposited data

How the results depend on the processing

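Leaving out 1 of the 6 control IgG arrays at a time gave 639 to 1384 genes higher and 634 to 885 lower, against 1384 and 1133 with all, and each such fit has fewer arrays. With array weights 3212 were higher and 1940 lower. Centring each array on its median over all probe sets, chosen after seeing the data, gave 2103 higher, and the cause was not tested. Centring on the genes tested gave 1052 higher and 1227 lower and lowered the median of all genes by 0.037. The fit of only the 6 IgG arrays, no filter, a filter at the median, the mean of all probe sets, quantile normalization, a variance trend and leaving out both arrays that stand apart (parental IgG 1 and parental anti-PD-1 3) kept both counts within 1.5 times.

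With a replicate block 1564 genes were higher and 1294 lower. Deviations of equally numbered IgG arrays from their group means correlated at 0.173, -0.208 and 0.254. Parental array 1 correlated best with resistant array 2 (0.231), and parental array 2 with resistant array 3 (0.319). With 3 arrays per group, 1 of which stands apart, these values cannot decide whether the replicate numbers pair the arrays.

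Of 327 named genes, 259 were called, and 134 of these stayed called in all 6 fits that leave out 1 array. Without parental IgG 1, 77 lost it. One direction changed: Lta4h was -0.04 with the mean of all probe sets (adjusted p = 0.78, limma), against 0.24.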

Other observations

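Some protein folding genes were higher in resistant tumours under control IgG. Of 15 cytosolic heat shock genes 5 were higher and none lower, with a median of 0.31, and all 5 calls held whichever array was left out. Hspb1, a small heat shock protein, was at 10.44, 9.80 and 10.29 in parental and 11.47, 11.37 and 11.36 in resistant arrays, a difference of 1.22 (limma, adjusted p = 0.00102). Dnajb1, a cochaperone, differed by 0.77 and Hspa4l by 0.75. Hspa1a (1.14) and Hspa1b (1.04) are near-identical copies whose probe sets may share signal. Of 20 genes of folding in the endoplasmic reticulum 7 were higher and none lower, with differences such as 0.62 for Herpud1 and 0.33 for Manf. Without parental IgG 3, or without resistant IgG 1, 3 were called, and 2 calls held whichever array was left out.

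Some early response genes were lower. Fos, an AP-1 subunit, was at 9.79, 10.04 and 10.07 in parental and 8.75, 8.26 and 8.52 in resistant arrays, a difference of -1.46 (limma, adjusted p = 0.000687). Egr1 differed by -1.0, and Lif, an IL-6 family cytokine, by -1.11 (adjusted p = 0.000546). Klf2, a factor of quiescent endothelium and T cells, was higher by 0.70. Of 23 early response genes 4 were lower (2 without parental IgG 3) and 1 higher, with a median of -0.08, and under anti-PD-1 15 were lower with a median of -0.75. Ptgs2, the inducible prostaglandin synthase, was higher under control IgG (0.63, adjusted p = 0.0239) and lower under anti-PD-1 (-0.50, adjusted p = 0.0332), and the difference between both was not called (adjusted p = 0.116). Among imprinted genes Grb10, an adaptor of the insulin receptor, was at 6.38, 6.66 and 6.67 against 8.02, 8.21 and 8.50, a difference of 1.67 (limma, adjusted p = 0.0026) that was 0.17 and not called under anti-PD-1 (adjusted p = 0.66). Cxcl12 (2.31) and Cxcl14 (1.32), chemokines of connective tissue, were higher, and the Cxcl12 call was lost without parental IgG 1 (adjusted p = 0.0746).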
